A study of Mus musculus with 6 samples.

Results

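The genes described here are 7 markers of the formative and primed epiblast: Otx2, Fgf5, Pou3f1, Zic2, Zic5, Pim2 and Car14. They were taken by symbol from the 1653 genes whose counts were listed for every library, and all 7 were found once. Pluripotent cells of the mouse embryo pass from a naive state before implantation through a formative state to a primed state just before gastrulation. Otx2, Fgf5 and Pou3f1 are classical genes of the first step out of the naive state and are called early formative below, while the other 4 are called other primed genes. Cells kept in serum with leukemia inhibitory factor are mostly held near the naive state and usually express a little of this programme, unevenly from cell to cell.

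Embryonic stem cells of C57BL/6 mice were sequenced as 3 wild-type and 3 Yaf2KO libraries. YAF2 belongs to variant forms of Polycomb repressive complex 1, which place ubiquitin on histone H2A at the CpG-rich promoters of silent developmental genes. The Yaf2KO cells were derived with Cas9, and the labels do not say how many clones were used. Both genotypes grew with serum and leukemia inhibitory factor on mouse fibroblasts whose division had been stopped with mitomycin-C, so RNA of the feeder cells can be in every library. The single question is what differs in Yaf2KO against wild type. Yaf2 itself is not among the rows used here, so its own transcript was not compared.

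The listed genes summed to 56367 to 72975 reads across wild type against 143682 to 451075 in Yaf2KO. These sums cover a part of each library and are not its depth, so 3 scales are used below. Raw counts are given as deposited. Scaled CPM are counts per 1000000 listed counts after TMM scaling, which sets the typical listed gene to no difference. Of the 1653 listed genes 1524 had more reads summed over Yaf2KO than over wild type, and how the list was chosen is not given. Scaled values are therefore relative to the listed genes, and a change that most of them share cannot be seen on that scale. Ratios between genes of 1 library need no scaling between libraries, although a pseudocount of 1 lets those with few reads, as Fgf5 and Car14 in wild type, move with depth. Of the naive pluripotency markers 10 of 31 symbols were listed, with Nanog at 1750 to 2756 counts in wild type, and of 12 core pluripotency symbols Alpl alone was listed. Other core genes were not analysed here.

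The 5 members with an entry in the RefSeq promoter table (GRCm38.p6) differ in base composition just before their start. Promoter letters are shown for Otx2 and Fgf5, the members with the highest values in Yaf2KO relative to wild type. Each run is the 250 bases before the annotated start, read 5′ to 3′ on the gene's strand, with CG dinucleotides in capitals because CpG-rich promoters are where variant Polycomb complexes are known to bind. Otx2 lies at chr14:48667645-48667894 on the minus strand and Fgf5 at chr5:98253934-98254183 on the plus strand.
Otx2: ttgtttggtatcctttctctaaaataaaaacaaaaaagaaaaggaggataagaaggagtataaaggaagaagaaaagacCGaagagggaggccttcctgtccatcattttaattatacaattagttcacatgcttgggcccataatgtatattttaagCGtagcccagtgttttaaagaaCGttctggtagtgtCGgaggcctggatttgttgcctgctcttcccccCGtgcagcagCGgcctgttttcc
Fgf5: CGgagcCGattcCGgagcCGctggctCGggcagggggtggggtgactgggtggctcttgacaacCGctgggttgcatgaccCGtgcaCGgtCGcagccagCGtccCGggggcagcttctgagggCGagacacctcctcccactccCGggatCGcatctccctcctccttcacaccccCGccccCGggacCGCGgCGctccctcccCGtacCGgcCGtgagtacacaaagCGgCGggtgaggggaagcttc

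Fgf5 held 24 CG dinucleotides and Pim2 22, more than 88.0% and 85.2% of the 32851 promoter entries of the same length. Otx2 held 6, which equals the median of all entries, and its GC content was 42.0%, against 70.8% in Fgf5 and 62.0% in Pim2. Zic5 held 11 and Car14 10. Only the Otx2 start that equals the end of the deposited gene interval was used, 1 of 4 starts in the table. Both strands were searched for 4 motifs, of which ATGCAAAT and CTTTGAT share no position in any of these matches. The octamer ATGCAAAT, a site for POU factors, occurred in Pim2 at -202 and -123 from the start and in 1.60% of all entries. CTTTGAT, a TCF/LEF site, occurred in Pim2 at -65 and in 3.21% of entries. TAATCC, an OTX site, occurred in Car14 at -61 and in 6.25% of entries. TATAAA occurred in Otx2 at -192 and in 12.4% of entries. Positions give the leftmost base of a match, and a match is a description of these letters only.

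In raw counts all 7 members had their lowest Yaf2KO value above their highest wild-type value. That holds for 27.4% of all listed genes and 65.2% of the 376 genes with enough reads to be tested, so the members' count is read against a high background. After scaling, Otx2, Fgf5 and Pim2 still had no overlap, with Yaf2KO above, which 6.12% of the tested genes do. The other 4 overlapped between the genotypes. By edgeR quasi-likelihood with Benjamini-Hochberg adjustment over the tested genes, 0 of 7 members passed 0.05, where 0.798% of tested genes were called higher. At an unadjusted p under 0.05 there were 2 members, Otx2 and Fgf5, against 4.26% of the tested genes. DESeq2 called these same 2 members (2.66% of tested genes called higher) and limma-voom called 0, with 2 at an unadjusted p under 0.05. The same 2 members were also called by edgeR without a low-count filter (0.916% of genes called higher), with a mean CPM of at least 1 (0.923%) and without Yaf2KO 1 (2.59%), and Otx2 alone with TMM before the filter (1.06%). Fgf5 passed the low-count filter only through Yaf2KO, so its separation and its calls after that filter were partly set in advance. Over the members 5 log2 fold changes were above 0 and 2 below, with a median of 0.72, and over all tested genes 180 were above and 196 below, with a median of -0.03.

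**Figure D1:**
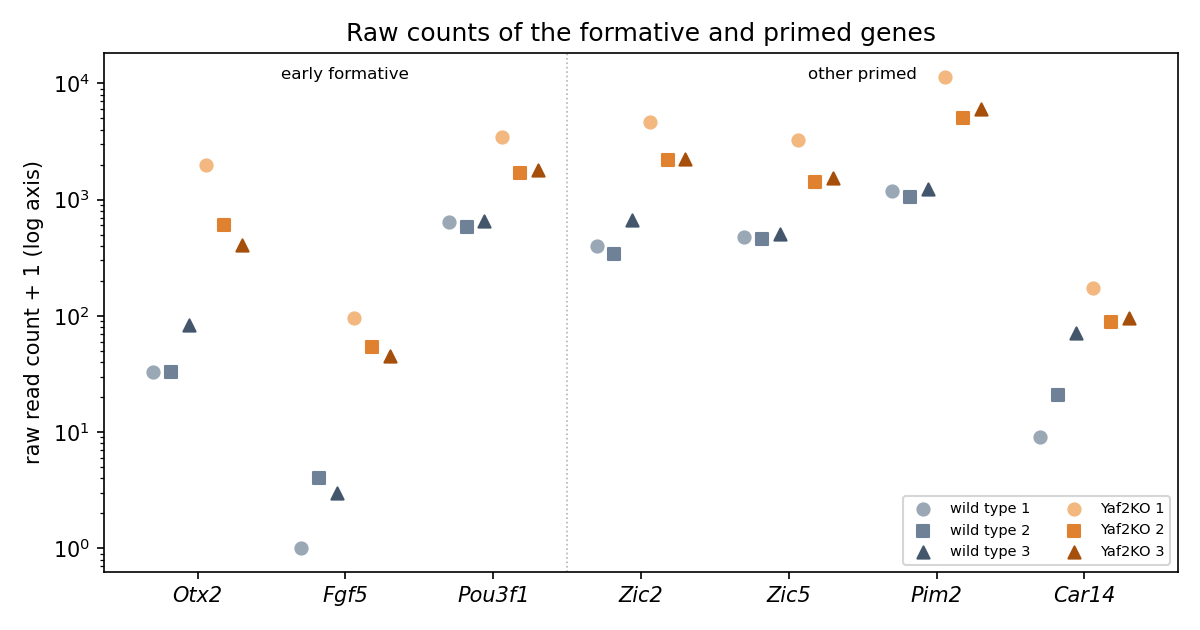
Raw read count plus 1 on a log axis for each gene in each of the 6 libraries, 1 point a library, without correction for depth. In all 7 genes the 3 Yaf2KO points lie above the 3 wild-type points, which holds for 65.2% of tested genes. Yaf2KO 1 is the highest in each of the 7.

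Otx2 (ENSMUSG00000021848, mm10 chromosome 14, 48657679 to 48667644, minus strand) encodes a homeodomain factor that moves cells out of the naive state and prepares enhancers for the primed programme. It had 32, 32 and 83 counts in wild type 1 to 3 and 1980, 609 and 404 in Yaf2KO 1 to 3. Wild type 3 was the highest of its group and Yaf2KO 3 the lowest of its own, and they remained apart by a wide margin. In scaled CPM Otx2 went from 478, 552 and 1198 in wild type to 4079, 2402 and 3046 in Yaf2KO, a ratio of means of 4.28. Scaling therefore removed most of the excess of Yaf2KO 1 and left the 3 Yaf2KO libraries within 1 log2 unit of each other. The fitted log2 fold change was 2.09 (SE 0.48, 95% interval 1.02 to 3.16, edgeR adjusted p = 0.111, 3 of 3 Yaf2KO values above the highest wild-type value), rank 13 of the 376 tested genes. Without Yaf2KO 1 it was 1.85 and passed the threshold (edgeR adjusted p = 0.0249). With single libraries left out the adjusted p ran from 0.0249 to 0.458. The antisense RNA Otx2os1 had 1, 1 and 7 reads across wild type against 23, 9 and 4 in Yaf2KO, so it too was highest in wild type 3 within wild type. Unlike Otx2, it overlapped between the genotypes even in raw counts, as Yaf2KO 3 lay below wild type 3. Its exons overlap those of Otx2 in the GENCODE vM21 annotation only outside the Otx2 interval of the files.

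Fgf5 (ENSMUSG00000029337, chromosome 5, 98254184 to 98277030, plus strand) encodes a secreted growth factor and is the textbook marker of the epiblast after implantation. It had 0, 3 and 2 reads across wild type against 94, 53 and 44 in Yaf2KO. Summed over a genotype that is 5 counts (exact Poisson 95% interval 1.62 to 11.7, counting error only) against 191 (165 to 220). The wild-type level is thus close to the limit of detection, and the size of the difference depends on a handful of reads. Scaled CPM were 0, 51.8 and 28.9 in wild type against 194, 209 and 332 in Yaf2KO. Unlike Otx2, Fgf5 was highest in Yaf2KO 3 and lowest in Yaf2KO 1 after scaling. The fitted log2 fold change was 3.18 (SE 0.82, 95% interval 1.36 to 5.01, edgeR adjusted p = 0.142, higher in 3 of 3 Yaf2KO libraries), rank 5 of the tested genes. Fgf5 passed the low-count filter only through Yaf2KO, where 3 of 3 libraries reached the minimum level and 0 of 3 in wild type did, so its place among tested genes already required a difference. Without Yaf2KO 1 its log2 fold change was 3.30 and it passed (edgeR adjusted p = 0.0337). The adjusted p ran from 0.0337 to 0.616 with single libraries left out.

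Pou3f1 (ENSMUSG00000090125, chromosome 4, 124656807 to 124660655, plus strand) encodes OCT6, a POU factor used as a marker of the same early transition. It had 635, 576 and 659 reads across wild type against 3479, 1682 and 1780 in Yaf2KO. The scaled level was 9476, 9940 and 9512 CPM in wild type, a nearly constant value, and 7166, 6635 and 13418 in Yaf2KO. Yaf2KO 1 and 2 thus lay below every wild-type library and Yaf2KO 3 above. The fitted log2 fold change was -0.09 (SE 0.35, 95% interval -0.87 to 0.69, edgeR adjusted p = 0.95). Pou3f1 therefore did not share the pattern of Otx2 and Fgf5, although it is grouped with them. The antisense gene Gm2164 overlaps its exons in the annotation and was not analysed here, and no strand setting is stated.

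Zic2 (ENSMUSG00000061524, chromosome 14, 122475435 to 122479852, plus strand) and Zic5 (ENSMUSG00000041703, chromosome 14, 122456795 to 122465677, minus strand) encode zinc-finger factors of the epiblast and the early neural plate. They are neighbours that point away from each other, with 9757 bases between them. Zic2 had 399, 339 and 664 reads across wild type against 4671, 2207 and 2236 in Yaf2KO. Zic5 had 473, 461 and 505 against 3256, 1418 and 1522. The libraries of wild type differed in Zic2, where wild type 3 stood above the other pair, and hardly in Zic5. In scaled CPM Zic2 ran at 5954, 5850 and 9584 in wild type against 9622, 8706 and 16856 in Yaf2KO, so the genotypes overlapped. Its fitted log2 fold change was 0.72 (SE 0.38, 95% interval -0.12 to 1.55, edgeR adjusted p = 0.95), and 0.38 without Yaf2KO 3. Zic5 came to 0.09 (SE 0.35, 95% interval -0.69 to 0.87, edgeR adjusted p = 0.95), with scaled CPM of 7059, 7956 and 7289 in wild type against 6707, 5594 and 11473 in Yaf2KO.

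Pim2 (ENSMUSG00000031155, chromosome X, 7878262 to 7883432, plus strand) encodes a serine/threonine kinase that favours survival and growth. It was the member with the most reads, 1192, 1053 and 1228 in wild type against 11425, 5022 and 5977 in Yaf2KO. Scaled, it was almost constant in wild type, with 17788, 18172 and 17725 CPM, and reached 23534, 19810 and 45057 in Yaf2KO. All 3 Yaf2KO values lay above wild type, but Yaf2KO 2 only slightly. The fitted log2 fold change was 0.72 (SE 0.36, 95% interval -0.07 to 1.51, edgeR adjusted p = 0.95, higher in 3 of 3 Yaf2KO libraries), and 0.28 without Yaf2KO 3.

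Car14 (ENSMUSG00000038526, chromosome 3, 95897768 to 95904691, minus strand) encodes a membrane-bound carbonic anhydrase. Its counts were 8, 20 and 70 in wild type against 173, 87 and 94 in Yaf2KO. Scaled CPM were 119, 345 and 1010 in wild type against 356, 343 and 709 in Yaf2KO, so wild type alone spanned more than the difference between the genotypes. The fitted log2 fold change was -0.08 (SE 0.71, 95% interval -1.65 to 1.49, edgeR adjusted p = 0.983), and its sign differed among the libraries left out, from -0.46 to 0.97. Aph1a on the other strand overlaps exons of Car14 and was not analysed here.

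**Figure D2:**
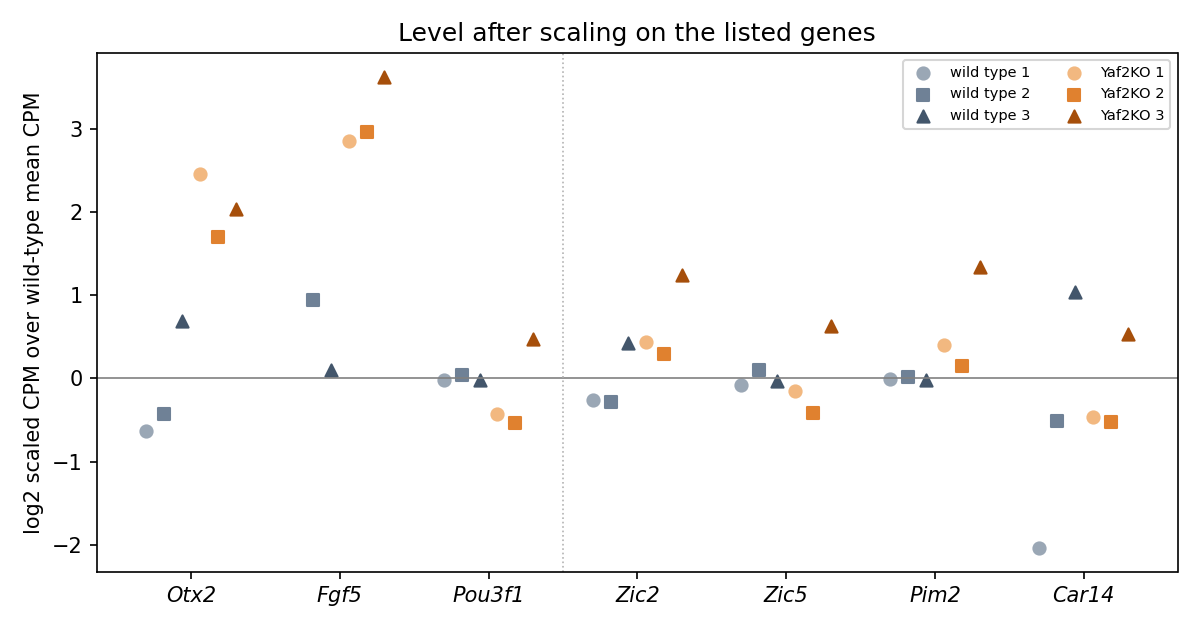
Log2 of scaled CPM over the wild-type mean CPM of the same gene, for each library (1 point each); Fgf5 in wild type 1 has 0 counts and is not drawn. The Yaf2KO points of Otx2 and Fgf5 lie between 1.69 and 3.63, and Yaf2KO 3 is the highest Yaf2KO library in all genes but Otx2.

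**Figure D3:**
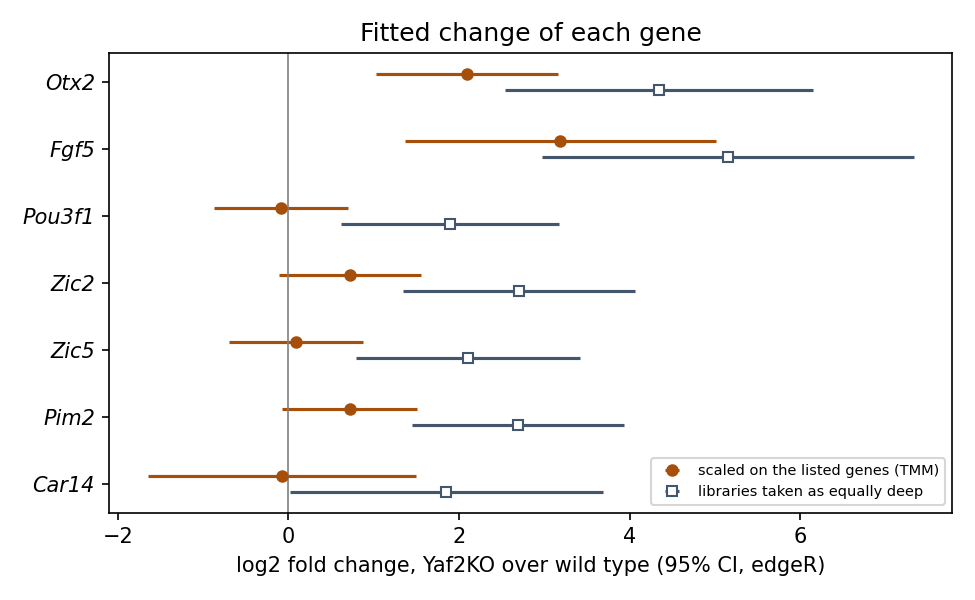
Fitted log2 fold change of each gene, Yaf2KO over wild type, with its 95% interval from edgeR (3 libraries per genotype), scaled on the listed genes (filled circles) and with all libraries taken as equally deep (open squares). Scaled, the intervals of Otx2 and Fgf5 lie above 0 and the other 5 span 0; at equal depth all 7 lie above 0, where 75.7% of tested genes were called higher.

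Taking all libraries as equally deep gives another reading of the raw counts. On that scale 6 of 7 members were called higher by edgeR, against 75.7% of the 415 genes then tested, which puts the members near the background. Car14 was the exception (log2 fold change 1.85, edgeR adjusted p = 0.0584). Otx2 came to 4.34 and Fgf5 to 5.15, and the median of all genes tested in this way was 2.12. The difference of Otx2 and Fgf5 from the typical listed gene is hence similar on both scales, and Zic5, Pou3f1 and Car14 came to 2.11, 1.89 and 1.85, close to that median.

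Yaf2KO 3 differed from the other Yaf2KO libraries in most members. The 7 genes together held 8.39% of the listed counts there, against 5.56% in Yaf2KO 1, 4.41% in Yaf2KO 2 and 4.18% to 4.41% in wild type. Among the 376 tested genes ordered by their scaled level over wild type, Pim2 ranked 44 in Yaf2KO 3, against 126 and 154 in Yaf2KO 1 and 2. Zic2 ranked 46 there, against 113 and 122, and Pou3f1 124, against 255 and 291. Otx2 ranked 10, 20 and 17 in Yaf2KO 1 to 3, near the top in every Yaf2KO library. Fgf5 ranked 4, 1 and 1, but it entered the tested genes only through Yaf2KO, so a high rank was partly set in advance. Its 0 counts in wild type 1 also lower the wild-type level it is ranked against. Of the 10 listed naive pluripotency genes, 8 had their lowest scaled level in Yaf2KO 3. Klf4 (3822 CPM, against 1622 to 2309 in wild type) and Tbx3 (430 CPM, against 289 in wild type 3) did not. The share of all tested genes that were lowest in Yaf2KO 3 was not computed, so the 8 of 10 stand without a background. The summed level of the 10 was 49067 scaled CPM in Yaf2KO 3, against 114099 and 75994 in Yaf2KO 1 and 2 and 77573 to 84901 in wild type. In RNA from whole cultures, a change in the number of cells of a state cannot be told apart from a change in RNA per cell.

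Setting each member against Nanog, a naive factor, in the same library gives a value that needs no scaling between libraries. Nanog itself had its lowest scaled level in Yaf2KO 3, 21228 CPM, against 41305 and 34358 in Yaf2KO 1 and 2 and 30201 to 39780 in wild type. Every ratio to Nanog in Yaf2KO 3 is raised by that low level. Per 100 Nanog counts there were 1.43, 1.83 and 3.01 Otx2 reads across wild type against 9.87, 6.99 and 14.3 in Yaf2KO, without overlap. Fgf5 had 0, 0.171 and 0.073 in wild type against 0.469, 0.608 and 1.56 in Yaf2KO, also without overlap. Of tested genes 5.33% had every Yaf2KO ratio to Nanog above wild type, and Fgf5 was tested only through its level in Yaf2KO. For Pou3f1, Zic2, Zic5 and Pim2, Yaf2KO 3 stood above every other library. Pou3f1 had 28.4, 32.9 and 23.9 in wild type, 17.35 and 19.3 in Yaf2KO 1 and 2 and 63.2 in Yaf2KO 3. Zic5 had 21.1, 26.3 and 18.3 in wild type, 16.2 and 16.3 in Yaf2KO 1 and 2 and 54.0 in Yaf2KO 3. In both genes Yaf2KO 1 and 2 thus lay below every wild-type library. Car14 had 0.357, 1.14 and 2.54 per 100 Nanog counts across wild type against 0.863, 0.999 and 3.34 in Yaf2KO, so wild type 3 was high beside Yaf2KO 3. Pim2 had 53.2, 60.2 and 44.6 per 100 Nanog counts in wild type, 57.0 and 57.7 in Yaf2KO 1 and 2 and 212 in Yaf2KO 3. Zic2 had 17.8, 19.4 and 24.1 in wild type, 23.3 and 25.3 in Yaf2KO 1 and 2 and 79.4 in Yaf2KO 3. Against the mean log2 count of the 10 listed naive genes, Otx2 was 2.12 and Fgf5 2.73 log2 units higher in Yaf2KO than in wild type, and both stayed without overlap.

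**Figure D4:**
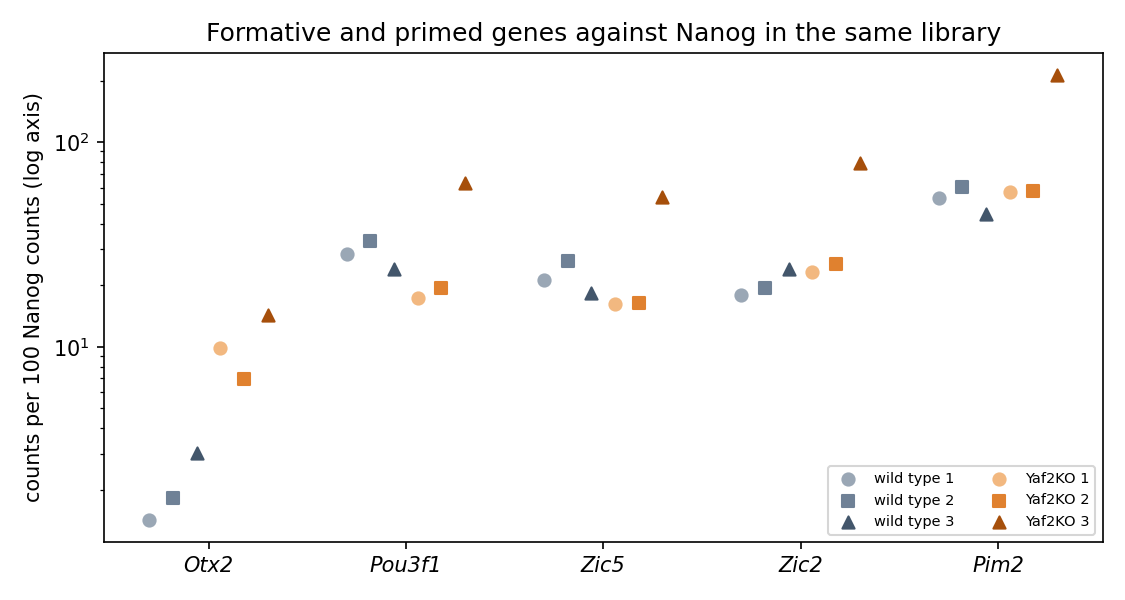
Counts of 5 genes per 100 Nanog counts of the same library on a log axis, 1 point a library. Otx2 runs from 1.43 to 3.01 in wild type and from 6.99 to 14.3 in Yaf2KO. In the other 4 genes Yaf2KO 3 stands above the remaining libraries, and Nanog itself had its lowest scaled level there.

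The 21 ratios between members within a library show how the genes differ from one another without scaling between libraries. In 14 of the 21 the genotypes did not overlap, and over all pairs of tested genes that share was 11.1%. Pairs that share a member are not independent of each other, and the members were chosen with earlier results known. Fgf5 entered the tested genes only through Yaf2KO, so the separation of its pairs was partly set in advance. For each of the 14 pairs the exact two-sided permutation test gave p = 0.1, the smallest that 3 libraries against 3 allow, and 0.15 after adjustment over the 21 pairs. Otx2 against Pou3f1 had log2 ratios of -4.27, -4.13 and -2.97 in wild type against -0.81, -1.46 and -2.14 in Yaf2KO, a mean difference of 2.32. Fgf5 against Pou3f1 differed by 2.93 on average, and its Yaf2KO values of -5.20, -4.96 and -5.31 lay close together. Of the 11 pairs of Otx2 or Fgf5 with other members counted once, Otx2 against Pim2 overlapped, as Yaf2KO 3 at -3.88 lay just under wild type 3 at -3.87, and so did Otx2 against Fgf5.

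Among Pou3f1, Zic5 and Pim2 the ratios varied little within each genotype and did not overlap between the genotypes, even where the difference was small. Pou3f1 against Zic5 had log2 ratios of 0.42, 0.32 and 0.38 in wild type against 0.10, 0.25 and 0.23 in Yaf2KO, a mean difference of only -0.19. Pou3f1 against Pim2 had -0.91, -0.87 and -0.90 in wild type against -1.72, -1.58 and -1.75 in Yaf2KO. Zic5 against Pim2 had -1.33, -1.19 and -1.28 against -1.81, -1.82 and -1.97. Relative to Pou3f1 and to Zic5, Pim2 was thus higher in every Yaf2KO library than in wild type, with mean differences of -0.79 and -0.60 for the ratios as written. Zic2 against its neighbour Zic5 had -0.24, -0.44 and 0.39 in wild type against 0.52, 0.64 and 0.55 in Yaf2KO. The Yaf2KO libraries agreed closely in this ratio (SD 0.06, n = 3), and wild type 3 lay nearer to them than to the other wild-type libraries (SD 0.44, n = 3). Zic2 against Pim2 overlapped, with a mean difference of 0.07.

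**Figure D5:**
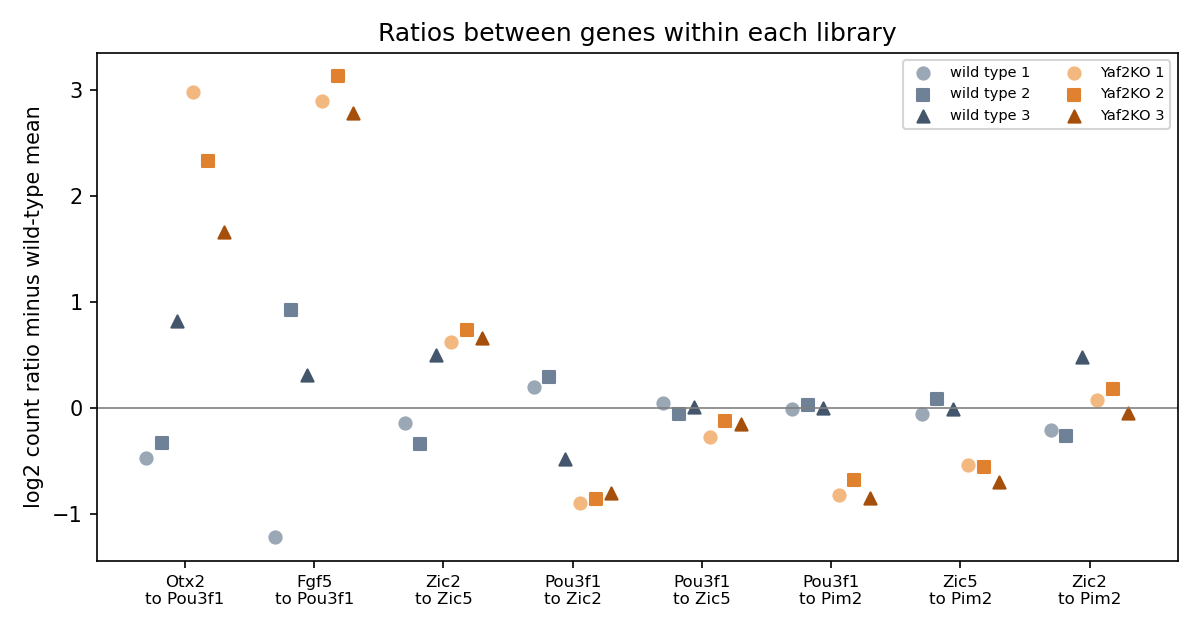
Log2 count ratio of 8 pairs of genes within each library, minus the wild-type mean of the pair, 1 point a library. Otx2 and Fgf5 lie higher against Pou3f1 in all 3 Yaf2KO libraries, Pou3f1 and Zic5 lie lower against Pim2, and Zic2 against Pim2 overlaps.

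The mean log2 count of the 3 early formative genes minus that of the 4 other primed genes was -2.95, -2.52 and -2.91 in wild type (-2.79 ± 0.24, SD, n = 3) and -1.43, -1.51 and -1.89 in Yaf2KO (-1.61 ± 0.24, SD, n = 3). The genotypes did not overlap and differed by 1.18 log2 units, by 0.73 with a pseudocount of 5 and by 0.64 with Zic2 and Zic5 counted as early formative. Left without Fgf5, which has few wild-type reads, the difference was 0.59, against 0.90 without Otx2 and 2.06 without Pou3f1. No test was made of a value built from chosen genes. Relative to the 4 other primed genes, the early formative genes did not share 1 direction. Against the same 4 genes Otx2 alone differed by 1.75 and Fgf5 alone by 2.37, both without overlap. Pou3f1 alone differed by -0.57, with 1.58, 1.25 and 0.67 in wild type against 0.57, 0.63 and 0.59 in Yaf2KO. Wild type 3 thus lay only just above Yaf2KO 2. The 4 genes include Car14, with 8, 20 and 70 reads in wild type 1 to 3. In scaled CPM Pou3f1 itself overlapped between the genotypes, with a fitted log2 fold change of -0.09 (SE 0.35). The -0.57 therefore does not show a lower level of Pou3f1 itself. With summed counts, where Pou3f1 supplies most early formative reads, the difference was -0.29. The direction of the summed value is thus that of Pou3f1 relative to the 4 other primed genes. The direction of the mean log2 value is that of Otx2 and Fgf5.

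As a share of the reads of all 7 members, which needs no scaling either, Otx2 made up 1.17%, 1.29% and 2.58% across wild type against 7.90%, 5.50% and 3.35% in Yaf2KO. The Wilson 95% interval, for counting error only, was 2.09 to 3.19% in wild type 3 and 3.04 to 3.69% in Yaf2KO 3, the closest libraries of the genotypes. Pou3f1 made up 23.2%, 23.2% and 20.5% across wild type against 13.9%, 15.2% and 14.8% in Yaf2KO, the opposite order without overlap.

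Per kilobase of annotated exon the order of the members was nearly the same in every library. Pim2 was first in all 6 libraries and Fgf5 last. Zic5 held the middle rank, 4, in all 6. Pou3f1 was rank 2 and Zic2 rank 3 in wild type 1 and 2, and the reverse held in wild type 3 and all Yaf2KO libraries. Pim2 had 377 to 439 counts per kilobase in wild type, Pou3f1 150 to 171 and Zic2 118 to 231, so the last pair overlapped. Otx2 had 7.90, 7.90 and 20.5 and Car14 3.15, 7.86 and 27.5 counts per kilobase in wild type, and these overlapped too. In Yaf2KO Otx2, with 99.7 to 489, exceeded Car14, with 34.2 to 68.0.

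Other genes of the programme were counted from a wider list of 37 formative and primed symbols, chosen with earlier results of these data known. Of these 7 were listed, 5 were tested and 2 were called higher, Lef1 and Wnt8a, where 0.798% of all tested genes were called higher. The list median was 2.10 against -0.03 for all tested genes. Lef1, a WNT effector, had 9, 5 and 12 reads across wild type against 1315, 208 and 131 in Yaf2KO, and Wnt8a, a WNT ligand, had 7, 3 and 4 against 335, 183 and 82. Neither Lef1 nor Wnt8a reached the minimum level of the low-count filter in every wild-type library. Their place among the tested genes, as that of Fgf5, thus depended on Yaf2KO. The log2 fold changes of Lef1 and Wnt8a were 3.51 (SE 0.64) and 3.23 (SE 0.55), both with an edgeR adjusted p of 0.0434. Leaving out any single wild-type library left 0 of the 2 called, and leaving out Yaf2KO 2 left Lef1 alone. Trh, a neuropeptide precursor gene with the most reads of this list, came to a log2 fold change of 0.44 (SE 0.34, edgeR adjusted p = 0.95). Fgf5 acts through FGF receptors and ERK, and of 24 symbols for that pathway 2 were listed. Fgf8 (7, 15 and 9 counts against 49, 108 and 49) and Fgf1 (4, 5 and 8 against 64, 25 and 14) were tested and not called, with log2 fold changes of 0.86 (SE 0.67) and 0.36 (SE 0.54).

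By Pearson's r of log2 scaled CPM over the 6 libraries, used only to order genes by likeness, Lef1 was the named gene most like Otx2 (r = 0.95), followed by Ankrd36 (0.95), Porcn (0.91), Rab25 (0.89) and Klf4 (0.88). For Fgf5 the order was Chil1 (0.95), Myrf (0.94), Csn3 (0.90), Gfra1 (0.85) and Ankrd36 (0.82). The 6 points are 3 libraries of each genotype, so a gene that differs between the genotypes scores high, and 1.07% of tested genes exceeded 0.9 with Otx2. Klf4, a naive factor, had 148, 94 and 160 reads across wild type against 5073, 1120 and 507 in Yaf2KO. Among the members themselves Otx2 and Fgf5 had r = 0.87, and Pou3f1 and Zic5 r = 0.94, whereas Otx2 and Pou3f1 had -0.23.

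Markers of other cell types also differed among the Yaf2KO libraries. Of 36 feeder fibroblast symbols 7 were listed, 5 were tested and 0 called (0 at an unadjusted p under 0.05 by edgeR). Their summed scaled level was 22849 to 29548 CPM in wild type against 9300, 49289 and 30839 in Yaf2KO 1 to 3. The scaled level of Otx2 had the reverse order in Yaf2KO, 4079, 2402 and 3046 CPM. All other members were highest in Yaf2KO 3, as Fgf5 with 194, 209 and 332 CPM, and did not have that order. Tagln had 1200, 900 and 780 reads across wild type against 2493, 7092 and 2428 in Yaf2KO. Its fitted log2 fold change was 0.20 (SE 0.52). No listed feeder marker was at 0 in every library, Postn and Prrx1 had at most 12 counts. Neuroectoderm markers had 7 of 26 listed and 5 tested, with 0 called (2 at an unadjusted p under 0.05 by edgeR) and a summed level of 8704 to 13892 CPM in wild type against 5827 to 16260 in Yaf2KO. Mesoderm and streak markers had 11 of 34 listed and 8 tested, with 0 called (0 at an unadjusted p under 0.05 by edgeR) and 5505 to 6148 CPM against 4002 to 7637. Primitive endoderm was represented by Sox7 (27, 20 and 11 counts against 113, 75 and 19) and trophectoderm by Tfap2c (736, 637 and 395 against 5789, 2751 and 1193). After scaling, Sox7 had 403, 345 and 159 CPM in wild type against 233, 296 and 143 in Yaf2KO. Tfap2c had 10983, 10993 and 5701 CPM in wild type against 11925, 10852 and 8993 in Yaf2KO. Neither was called, with log2 fold changes of -0.42 (SE 0.55) and 0.20 (SE 0.35). The part of these cell types in the members' values was not tested.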

How the data were processed

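Poly-T selected RNA of 6 libraries was sequenced from NEBNext Ultra libraries, per the labels' protocols. The authors deposited raw read counts per gene, 1 library a file, per the file headers. TopHat2 2.0.12, Cufflinks 2.2.1, HTSeq 0.6.0 and mm10 are named in the submitters' processing notes without roles, and the strand setting is not stated by the labels or headers. How the 1653 genes were chosen is not given either, and library totals were not used.

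Groups and replicate numbers come from the sample titles. No label calls the libraries separate cultures, so a p-value reflects the scatter among 3 libraries a genotype, and that scatter may be technical. All listed genes were fitted with edgeR 4.0.16 (R 4.3.3): filterByExpr, TMM on the filtered genes, robust quasi-likelihood, Benjamini-Hochberg over the 376 genes tested. Raw counts were compared with a pseudocount of 1 for log2 ratios (Python 3.11.15, scipy 1.17.1). Alternatives were other scalings, filters, pseudocounts and gene splits, DESeq2 1.42.0, limma 3.58.1 (voom), the replicate block and each library left out. Exon lengths are from GENCODE vM21 within the deposited interval, promoters from RefSeq; Pou3f1 and Zic2 have no entry in the promoter table. The edgeR script was tested on simulated data.

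The members, lists and tests were chosen with earlier results of these data known. Named are the 7 members, the 5 regularly named genes most like Otx2 and Fgf5, and examples and calls of the fixed lists.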

Additional observations from a re-analysis of the deposited data

How the results depend on the processing

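Otx2, Fgf5, Zic2 and Pim2 had log2 fold changes above 0 in all alternatives run; the adjusted p of Otx2 and Fgf5 depended on the test and filter. TMM before the low-count filter was chosen after seeing the data. Otx2 passed the threshold with that scaling (2.49), with the DESeq2 Wald test (2.13), without a low-count filter (2.49), with a mean CPM of at least 1 (2.49) and at equal depth (4.34). Fgf5 passed with DESeq2 (3.25), without a filter (3.50), with a mean CPM of at least 1 (3.50) and at equal depth (5.15). At equal depth Zic2 (2.70), Pim2 (2.69), Zic5 (2.11) and Pou3f1 (1.89) also passed. The median of all tested genes is 2.12 at equal depth and 0.29 with TMM before the filter, against -0.03.

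With single libraries left out, the log2 fold change ran from 1.85 to 2.59 for Otx2, 2.66 to 4.13 for Fgf5, -0.47 to 0.079 for Pou3f1, -0.27 to 0.27 for Zic5 and -0.46 to 0.97 for Car14. Values close to 0 turned in sign: Pou3f1 came to 1.89 at equal depth and to 0.20 with TMM before the filter, with a mean CPM of at least 1 or with no filter. Car14 came to 1.85 at equal depth, 0.35 in those 3 settings, 0.26 with limma-voom and 0.28 with the replicate block, and Zic5 to -0.0076 with limma-voom.

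The count of called members, 0, was 1 with TMM before the filter, 2 with DESeq2, 2 without a filter, 2 with a mean CPM of at least 1 and 6 at equal depth, and 0 to 2 with single libraries left out. The count of called listed genes, 3, was 10 with DESeq2, 15 without a filter, 15 with a mean CPM of at least 1, 314 at equal depth, 0 with limma-voom, 0 at an adjusted p under 0.01 and 0 to 11 with single libraries left out. With the replicate block it was 0 (18 genes at an unadjusted p under 0.05 by edgeR). The deviations of libraries with the same number had correlations of 0.04, 0.18 and 0.17. Those of libraries with different numbers ran from -0.35 to 0.25, so the numbers were not taken as a pairing.

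The early formative minus other primed difference, 1.18, was 0.73 with a pseudocount of 5, 0.64 with Zic2 and Zic5 counted as early formative and -0.29 with summed counts. It was 0.59 without Fgf5, 0.90 without Otx2 and 2.06 without Pou3f1. Of the members 3 kept separate genotypes after TMM scaling (Yaf2KO above in 6.12% of tested genes), against 7 in raw counts (65.2%). The cause was not tested. Depth limits Fgf5 most, with 5 reads in wild type.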
